A study of Mus musculus with 9 samples.

Results

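The genes for the factors that start, extend and end protein synthesis were taken by symbol. They are those whose names begin with Eif1 to Eif6 or with Eef1 or Eef2, together with the release factors Etf1, Gspt1 and Gspt2 and the poly(A)-binding proteins Pabpc1 and Pabpc4. Kinases of eIF2 and eEF2 and the binding proteins of eIF4E were left out of this set and are described apart. The rule found 69 of the 16509 genes in the table. Of these, 63 had enough counts to be tested, among 11949 genes tested in all.

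Translation begins when eIF2, bound to GTP, brings the initiator tRNA to the small ribosomal subunit with eIF1, eIF1A, eIF3 and eIF5, while eIF4E, eIF4G and eIF4A bind the cap of the messenger and unwind it. eIF2B recharges eIF2 with GTP, and phosphorylation of eIF2 alpha blocks this step, which makes the pair the main switch of the integrated stress response. eEF1A and eEF2 then drive elongation, and eRF1 (Etf1) with eRF3 (Gspt1 or Gspt2) releases the finished chain at a stop codon.

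Messenger RNA selected on oligo(dT) was sequenced from MC38, a mouse colon carcinoma line, in 3 groups of 3 libraries. Control cells (CTL) carry the treatment label DMSO, although the methods of the study name PBS. The second group received Cu-Cys, a complex of copper and cystine, and the third received Cadict, a preparation that also holds glucose oxidase and the peptide GE11. No dose or time for these libraries is given in the sources used here. The columns of the table call the treatments CC and CCGE. CC was read as Cu-Cys from its initials, and CCGE as Cadict from its components, which is an inference. The methods state in general terms that in vitro work was repeated independently, while the labels do not tie each library to a culture of its own, so p-values measure the spread between these libraries, part of which may be technical.

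The libraries held 17905771 to 18293056 expected counts each, so that raw counts of a gene can be set side by side across libraries. Their composition differed. TMM factors, which place the typical gene at the same level, were 1.262 to 1.274 in CTL, 1.206 to 1.209 in Cu-Cys and 0.6395 to 0.6654 in Cadict libraries. In Cadict against CTL, all tested genes had a median log2 fold change of -0.13 with TMM, -0.01 with DESeq2's size factors and -1.08 with library totals. A gene at 0.95 on the TMM scale therefore kept about the same share of its library. Changes below are relative to the typical gene unless counts or shares are named, and a direction that differs between the scales is given on both. Most epithelial markers were nearly absent, although Cdh1 had 65 to 152 counts. Epcam had 0 counts in every CTL and Cu-Cys library and Krt18 had 0 to 2 counts in any library. The mesenchymal marker Vim had 22159 to 47652 counts. Ptprc of leukocytes had 1 to 4. Krt19 (19 to 33 counts in CTL, 119 to 131 in Cadict) and Cd68 of macrophages (68 to 72 in CTL, 181 to 214 in Cadict) were higher in Cadict libraries, and their part in the results was not tested.

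In Cadict-treated cells most of the factor genes rose relative to the typical gene, and the rise had named exceptions. With edgeR's quasi-likelihood test, 48 of 63 were higher with an adjusted p no greater than 0.05, where 40.6% of all tested genes were called higher. Only 11 were lower, where 47.1% of all genes were. At the threshold of the study, a 2-fold difference with an adjusted p no greater than 0.001, 35 were higher beside 20.7% of all genes, and 5 were lower beside 27.1%. Over the 63 genes the log2 fold change had a median of 1.13, beside -0.13 over all genes. With library totals 33 of the 48 were still higher, 7 were called lower and 8 passed in neither direction, whereas the 11 lower genes were lower on both scales. On that scale 18.1% of all genes were higher and 73.1% lower, and the median was 0.17 over the 63 genes and -1.08 over all. The 7 were Eif1b, Eif2b1, Eif2b4, Eif3l, Eif4b, Eif4g1 and Pabpc1.

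**Figure D1:**
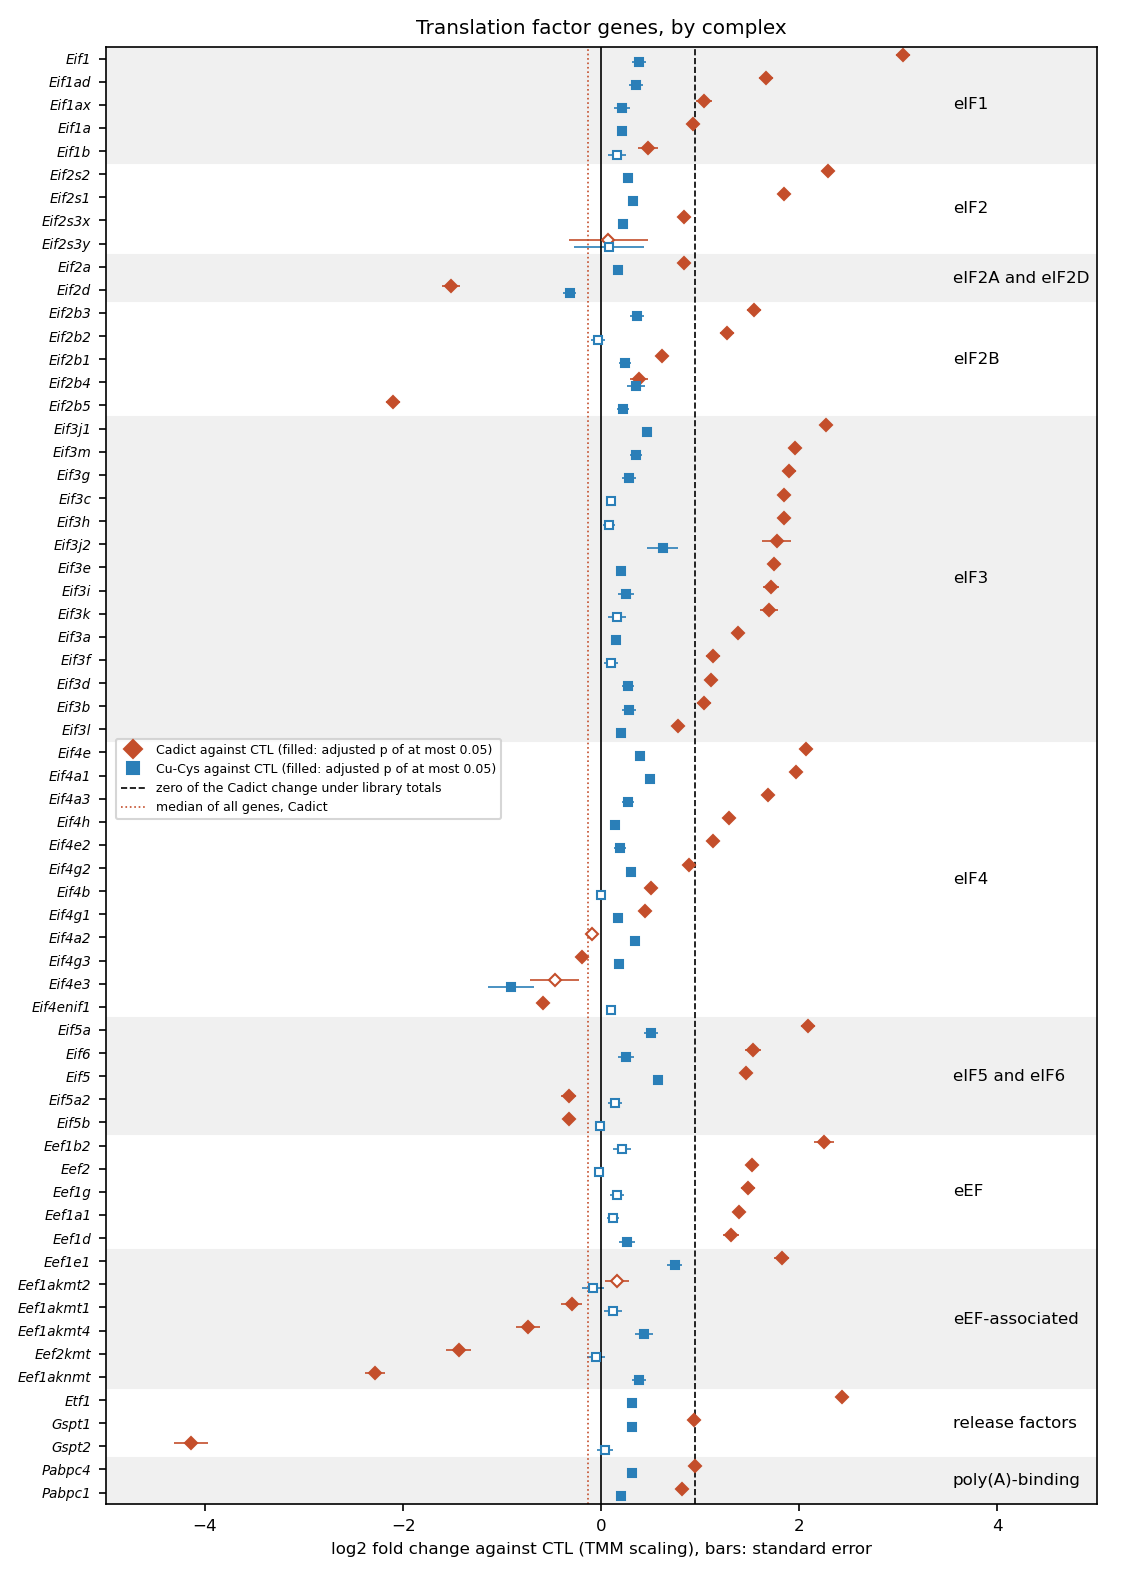
Log2 fold change against CTL of the 63 tested factor genes, grouped by complex, in Cadict (diamonds) and Cu-Cys (squares), with the standard error of the fit as bars and filled symbols where the adjusted p was at most 0.05. Genes right of the dashed line at 0.95 also gained share of their library in Cadict, and Gspt2, at -4.14, lies farthest left.

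The share of a library's counts needs no scaling between libraries. All 69 genes together took 3.313%, 3.325% and 3.394% of the counts in CTL, 3.693%, 3.604% and 3.622% in Cu-Cys and 4.724%, 4.913% and 4.598% in Cadict libraries. The 3 groups did not overlap, and the order was CTL, Cu-Cys, Cadict. Eef1a1, the delivery factor for aminoacyl-tRNA and the most abundant member, took 1.059% ± 0.0397 in CTL (SD, n = 3) and 1.435% ± 0.0791 in Cadict libraries (SD, n = 3). Without it the order was the same, with means of 2.285%, 2.541% and 3.31%. The complexes moved unequally. The eIF1 group went from 0.1075% ± 0.000718 in CTL to 0.3261% ± 0.0289 in Cadict libraries (SD, n = 3 each). The eIF3 subunits went from 0.4008% ± 0.00386 to 0.6088% ± 0.0121 (SD, n = 3 each). The sum over the eIF2B subunits went the other way, from 0.0313% ± 0.000238 to 0.01695% ± 0.000731 (SD, n = 3 each), with Eif2b5 included. Without Eif2b5, a choice made after seeing the data, the other 4 subunits took 0.01355% ± 0.000189 in CTL and 0.0148% ± 0.000686 in Cadict libraries (SD, n = 3 each). The poly(A)-binding genes lay at 0.2736% to 0.2799% in CTL, 0.3048% to 0.3094% in Cu-Cys and 0.2432% to 0.2735% in Cadict libraries. With 3 libraries against 3 an exact permutation test cannot go below 0.10, so shares were not tested.

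**Figure D2:**
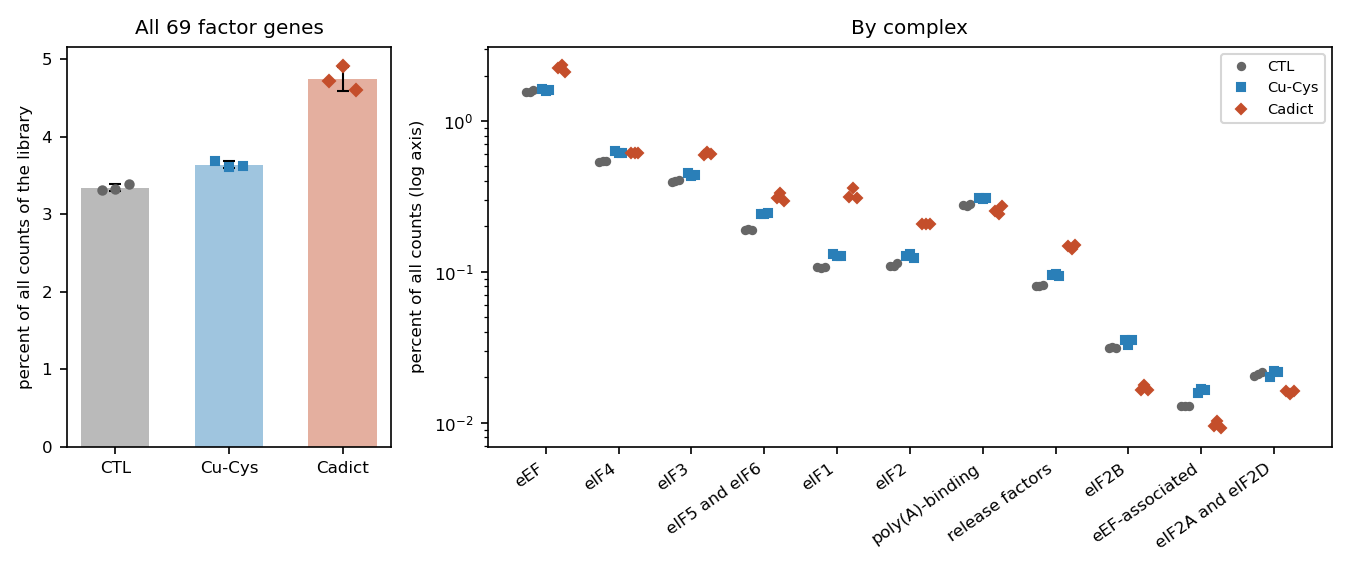
Percent of each library's counts on all 69 factor genes (left, bars are means and error bars SD of 3 libraries, points are libraries) and on each complex (right, log axis, 1 point per library). The total rises from 3.344% in CTL to 4.745% in Cadict, while eIF2B, the eEF-associated genes, the poly(A)-binding genes and eIF2A with eIF2D lie below their CTL values.

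CACGTG, the E-box read by Myc, Max and related factors, was searched in promoter windows of RefSeq on GRCm38.p6, from 250 bases before to 50 bases after each annotated start. The motif reads the same on both strands. Windows were found for 48 of the 63 tested members and 9550 tested genes, and a gene with several annotated starts has several windows. The motif was in the windows of 13 members (27.1%) and of 1130 genes in all (11.8%), and in 8.94% of all 16240 windows. Of the 13, 10 were higher and 3 lower in Cadict, and of the 35 without it 26 were higher and 6 lower. Members were called higher about as often with the motif as without it. Of all tested members 76.2% were higher and 17.5% lower, beside 40.6% and 47.1% of all tested genes, whose calls were not split by motif. The median log2 fold change was 1.29 with the motif and 1.04 without it among members, and 0.23 and -0.18 among all genes. The windows below show it in members that rose, in a paralog pair that moved apart (Eif5a and Eif5a2) and in the methyltransferase that fell most. Each is read along the strand of the gene, and capitals mark the motif.
Eif4e (chr3:138527192-138527221, plus strand, motif 64 bases before the start): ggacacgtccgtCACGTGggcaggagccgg
Eif4a1 (chr11:69672595-69672624, minus strand, motif 189 bases before the start): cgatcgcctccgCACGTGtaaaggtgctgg
Eif3k (chr7:28981915-28981944, minus strand, motif 44 bases before the start): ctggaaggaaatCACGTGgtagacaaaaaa
Eef2 (chr10:81176576-81176605, plus strand, motif 43 bases before the start): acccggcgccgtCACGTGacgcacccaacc
Eif5a (chr11:69921443-69921472, minus strand, motif 74 bases before the start): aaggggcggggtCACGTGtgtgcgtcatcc
Eif5a2 (chr3:28781148-28781177, plus strand, motif 117 bases before the start): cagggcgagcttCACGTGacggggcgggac
Eef1aknmt (chr1:162548475-162548504, minus strand, motif 147 bases before the start): gtgtggctgctgCACGTGgggcgcggaccg

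The motif thus stood before members that rose and before members that fell. Other motifs were searched on both strands. TGATGNAA, the core that ATF4 and its partners read, was in the windows of 1 member (2.08%) beside 2.57% of all genes, and TGACGTCA, the site of CREB and ATF proteins, in 1 member (2.08%) beside 3.59%. A start at C followed by 4 pyrimidines, the mark of messengers under control of mTOR, was annotated for 2 members (4.17%) beside 2.91%. This match had to begin at the annotated base itself. A start annotated slightly off was missed, in members and in all genes, so these shares cannot tell how many members carry the mark. A match describes letters only.

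Eif1, which guards the choice of the start codon, had the highest rise of all members. It had 12074, 12026 and 11738 counts in CTL, 15293, 14308 and 14686 in Cu-Cys and 47831, 55932 and 46966 in Cadict libraries. The 3 groups did not overlap, and every Cadict library lay far above the rest. Its log2 fold change in Cadict against CTL was 3.05 (SE 0.07, edgeR adjusted p = 5e-15), an 8.29-fold rise. Its paralog Eif1b had 298, 273 and 276 counts in CTL, 304, 292 and 298 in Cu-Cys and 179, 228 and 188 in Cadict libraries. The Cadict libraries held fewer Eif1b counts than any other, while the TMM log2 fold change was 0.47 (SE 0.10, edgeR adjusted p = 0.00036) and that with library totals was -0.49. Beside 40.6% of all tested genes, the other members also passed upward with TMM. They were Eif1ad at 1.66, Eif1ax at 1.04 and Eif1a at 0.93, the last of which stood at -0.02 with library totals. Eif1-ps3 had 0 or 1 count in every library and was not tested.

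The eIF2 trimer rose in its alpha and beta subunits most. Eif2s2, the beta subunit and most abundant of the complex, had 9318, 9285 and 9634 counts in CTL, 10838, 11025 and 10416 in Cu-Cys and 23249, 23924 and 23034 in Cadict libraries. The groups did not overlap. Its log2 fold change was 2.29 (SE 0.05, edgeR adjusted p = 2.4e-15). Eif2s1, the alpha subunit that the stress kinases phosphorylate, stood at 1.85 with an adjusted p of 3.3e-14. The gamma subunit Eif2s3x had 6470, 6640 and 6831 counts in CTL, 7210, 7535 and 7186 in Cu-Cys and 6272, 5493 and 6373 in Cadict libraries. It stood at 0.84 with TMM and -0.11 with library totals, so that its counts did not follow those of its partners. Its Y-linked copy Eif2s3y had 28, 30 and 26 counts in CTL, 30, 19 and 35 in Cu-Cys and 4, 15 and 26 in Cadict libraries. These groups overlapped, and its log2 fold change of 0.07 (SE 0.40) did not pass.

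The tRNA carriers outside the trimer, Eif2a and Eif2d, moved apart. Eif2a encodes eIF2A, a separate protein from eIF2 alpha. It had 2879, 2998 and 3099 counts in CTL, 3011, 3373 and 3195 in Cu-Cys and 2778, 2622 and 2750 in Cadict libraries. The Cadict counts were slightly below CTL, so its log2 fold change was 0.84 with TMM (SE 0.05, edgeR adjusted p = 3.8e-10) and -0.12 with library totals. Eif2d, which can place tRNA on the ribosome without GTP and acts in recycling, had 848, 859 and 841 counts in CTL, 606, 610 and 716 in Cu-Cys and 148, 165 and 138 in Cadict libraries. The groups did not overlap and both treatments lay below CTL. Its log2 fold change was -1.52 in Cadict (SE 0.09, edgeR adjusted p = 1.6e-10) and -0.32 in Cu-Cys (SE 0.07, edgeR adjusted p = 0.00246). The count ratio of Eif2s1 to Eif2d was 4.838, 4.89 and 5.089 in CTL, 7.903, 8.615 and 6.766 in Cu-Cys and 51.05, 47.58 and 55.29 in Cadict libraries.

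eIF2B, the exchange factor of eIF2, shifted its subunit balance further than eIF3 did, and this difference rests on Eif2b5. The other eIF2B subunits had log2 fold changes between 0.38 (Eif2b4) and 1.54 (Eif2b3) with TMM. That span is narrower than the 0.77 to 2.27 over eIF3. Eif2b5, the catalytic epsilon subunit, had 3164, 3291 and 3241 counts in CTL, 3790, 3312 and 3620 in Cu-Cys and 370, 395 and 387 in Cadict libraries. Every Cadict library lay far below both other groups. Its log2 fold change was -2.10 (SE 0.07, edgeR adjusted p = 9e-14), which is 0.234 times the CTL level with TMM. The other catalytic subunit, Eif2b3 (gamma), went up. It had 585, 565 and 549 counts in CTL, 687, 681 and 703 in Cu-Cys and 865, 897 and 755 in Cadict libraries, without overlap, and its log2 fold change was 1.54 (SE 0.07, edgeR adjusted p = 1.1e-11).

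The regulatory subunits of eIF2B, which sense phosphorylated eIF2 alpha, lay between. Eif2b2 stood at 1.27. Eif2b1 had 718, 761 and 746 counts in CTL, 770, 842 and 876 in Cu-Cys and 576, 552 and 597 in Cadict libraries, so that its counts were lowest in Cadict while the TMM log2 fold change was 0.61 (SE 0.06, edgeR adjusted p = 1.4e-07) and that with library totals was -0.34. Eif2b4 stood at 0.38 with TMM and -0.58 with library totals. Set against the geometric mean of the 5 subunits in the same library, Eif2b5 was 3.872, 3.986 and 4.026 times the mean in CTL and 0.728, 0.7129 and 0.7572 times in Cadict libraries. In the same measure Eif2b3 went from 0.7159, 0.6843 and 0.682 to 1.702, 1.619 and 1.477. Neither measure depends on scaling, and the groups did not overlap. The mean includes Eif2b5, so the fall of Eif2b5 by itself raises the ratio of Eif2b3, which is not separate evidence of a shift. In Cu-Cys libraries Eif2b5 lay at 3.761 to 4.213, across the CTL values.

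**Figure D3:**
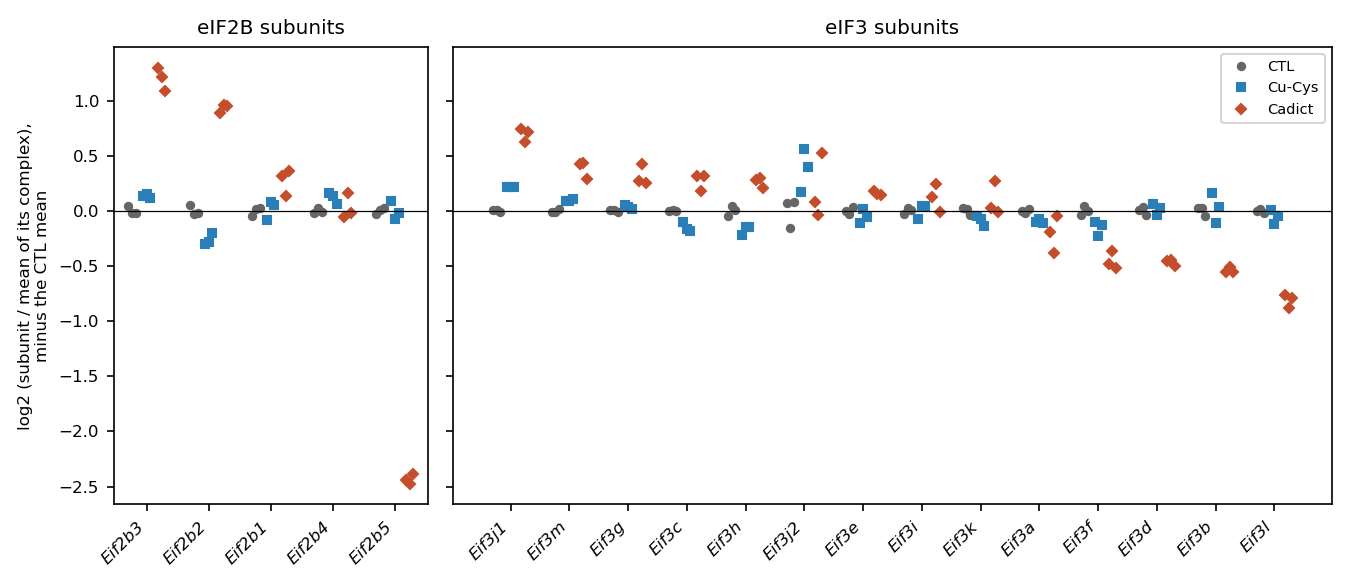
Log2 ratio of each eIF2B and eIF3 subunit to the geometric mean of the tested subunits of its complex in the same library, minus the mean of the CTL libraries (1 point per library). In Cadict libraries Eif2b5 falls to 0.1849 times its CTL ratio, while the eIF3 subunits stay between 0.5704 times (Eif3l) and 1.618 times (Eif3j1).

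eIF3 is the scaffold that holds the small subunit ready. All 14 genes were called higher in Cadict, where 40.6% of all tested genes were. Their log2 fold changes were 0.77 to 2.27 with a median of 1.72. Of the 14 genes, 13 passed the threshold of the study upward, beside 20.7% of all genes. Eif3j1, which encodes the loosely bound j subunit, had 3614, 3679 and 3656 counts in CTL, 4799, 4737 and 4753 in Cu-Cys and 9053, 8968 and 8884 in Cadict libraries. The groups did not overlap, and its log2 fold change was 2.27 (SE 0.05, edgeR adjusted p = 1e-15). At the other end, Eif3l had 4241, 4360 and 4247 counts in CTL, 4904, 4417 and 4680 in Cu-Cys and 3734, 3698 and 3699 in Cadict libraries. Its log2 fold change was 0.77 with TMM (SE 0.05, edgeR adjusted p = 6.3e-10) and -0.18 with library totals, the only eIF3 gene whose sign turned. Eif3h, the most abundant per length at 564.2 TPM in CTL, had 5263, 5677 and 5541 counts in CTL, 5364, 5563 and 5597 in Cu-Cys and 9865, 10684 and 9411 in Cadict libraries. Its CTL and Cu-Cys counts overlapped (log2 fold change 0.08, edgeR adjusted p = 0.275), and it stood at 1.84 in Cadict.

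Among the others, Eif3m stood at 1.96, Eif3g at 1.90, Eif3c at 1.85, Eif3e at 1.74, Eif3i at 1.71 and Eif3k at 1.69. Eif3a, the largest core subunit, stood at 1.38. Eif3f at 1.13, Eif3d at 1.11 and Eif3b at 1.04 rose least after Eif3l. With library totals Eif3b did not pass (0.09, edgeR adjusted p = 0.232). Eif3d shares 37.18% of its 50-base stretches with an annotated transcript of the other strand. Eif3j2 had 71, 62 and 73 counts in CTL, 87, 113 and 101 in Cu-Cys and 107, 106 and 146 in Cadict libraries, at 1.77, but 91.85% of its 50-base stretches also occur in other genes, so its counts cannot be held apart from those of Eif3j1.

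The cap-binding eIF4 group was split. Eif4e, the cap-binding protein itself, had 3532, 3739 and 3648 counts in CTL, 4468, 4558 and 4552 in Cu-Cys and 7928, 7787 and 7527 in Cadict libraries. The groups did not overlap, and its log2 fold change was 2.07 (SE 0.05, edgeR adjusted p = 4.7e-15). Eif4a1, the main helicase and the most abundant of the group, had 20115, 20427 and 20664 counts in CTL, 27576, 27179 and 26815 in Cu-Cys and 39973, 42833 and 39019 in Cadict libraries. It also rose in steps, at 1.97 in Cadict (SE 0.05, edgeR adjusted p = 2.4e-14) and 0.49 in Cu-Cys (SE 0.05, edgeR adjusted p = 4.5e-06). Its paralog Eif4a2 had 5916, 5927 and 5703 counts in CTL, 7123, 7055 and 6888 in Cu-Cys and 2772, 2784 and 2849 in Cadict libraries. It rose in Cu-Cys (0.34, edgeR adjusted p = 2.6e-05) and did not pass in Cadict (-0.09, edgeR adjusted p = 0.0867), where its counts lay below those of every other library. It passed as lower without Cadict replicate 2 (-0.10, edgeR adjusted p = 0.0328) and with library totals (-1.04).

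Of the scaffolds, Eif4g2 had 20220, 20458 and 20583 counts in CTL, 23884, 24150 and 23192 in Cu-Cys and 19309, 18371 and 19853 in Cadict libraries. It stood at 0.89 with TMM and -0.07 with library totals. Eif4g1, the classical scaffold, had 13994, 14333 and 14101 counts in CTL, 15080, 14847 and 15112 in Cu-Cys and 9971, 8882 and 10422 in Cadict libraries. It stood at 0.44 with TMM and -0.51 with library totals, its counts being lowest in Cadict. Eif4g3 had 3072, 3097 and 3113 counts in CTL, 3428, 3227 and 3333 in Cu-Cys and 1352, 1362 and 1411 in Cadict libraries, and fell by 0.19 on the log2 scale (SE 0.05, edgeR adjusted p = 0.00134), which did not pass with DESeq2's size factors. Eif4enif1, a shuttling protein that carries eIF4E into the nucleus, was lowest among the calls. It had 1393, 1336 and 1375 counts in CTL, 1358, 1445 and 1361 in Cu-Cys and 480, 446 and 460 in Cadict libraries, at -0.59 (SE 0.06, edgeR adjusted p = 7e-08).

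The remaining eIF4 genes lay in between. Eif4a3, the helicase of the exon junction complex, stood at 1.68, Eif4h at 1.29 and Eif4b, the other helicase cofactor, at 0.50 with TMM and -0.45 with library totals. Eif4e2, a cap-binding protein that represses translation, had 2051, 2064 and 1927 counts in CTL, 2201, 2117 and 2214 in Cu-Cys and 2183, 2400 and 2121 in Cadict libraries, at 1.13. Eif4e3 had 36, 30 and 32 counts in CTL, 17, 14 and 18 in Cu-Cys and 15, 10 and 11 in Cadict libraries. It was lower in Cu-Cys (-0.91, edgeR adjusted p = 0.0047) and did not pass in Cadict (-0.47, edgeR adjusted p = 0.098). Eif4a3l1 (0 to 6 counts a library) and Eif4e1b (0 or 1) were not tested.

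Subunit joining and the factors named eIF5 showed the same contrast. Eif5a, which carries hypusine and helps ribosomes past stalling stretches, had 17642, 18252 and 18256 counts in CTL, 24264, 23511 and 24702 in Cu-Cys and 38535, 42609 and 35634 in Cadict libraries. The groups did not overlap. Its log2 fold change was 2.09 in Cadict (SE 0.07, edgeR adjusted p = 1.4e-13) and 0.50 in Cu-Cys (SE 0.07, edgeR adjusted p = 2.8e-05). Eif5a2, its paralog, had 1041, 1085 and 1115 counts in CTL, 1037, 1192 and 1163 in Cu-Cys and 419, 394 and 502 in Cadict libraries, at -0.33 (SE 0.08, edgeR adjusted p = 0.00115). Eif5b, the GTPase that joins the large subunit, had 5140, 4993 and 5001 counts in CTL, 4767, 4746 and 4722 in Cu-Cys and 1969, 2006 and 2149 in Cadict libraries. The Cadict counts lay far below the rest, where all tested genes had a median log2 fold change of -1.08 with library totals. With TMM the fall of Eif5b was small, at -0.33 (SE 0.05, edgeR adjusted p = 6.9e-06), which is 0.796 times the CTL level. Of its 50-base stretches, 14.3% lie against a transcript of the other strand. Eif5, which triggers GTP hydrolysis by eIF2, had 7416, 7479 and 7257 counts in CTL, 10085, 10761 and 10214 in Cu-Cys and 10235, 10011 and 10732 in Cadict libraries. Cu-Cys and Cadict counts of Eif5 overlapped, both above CTL, and its log2 fold change was 1.46 in Cadict (SE 0.05, edgeR adjusted p = 1.2e-13) and 0.57 in Cu-Cys (SE 0.05, edgeR adjusted p = 3.8e-07). Eif6, which keeps the ribosomal subunits apart, stood at 1.53.

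All 5 tested elongation factors were called higher in Cadict, beside 40.6% of all tested genes, within a narrow range of 1.31 to 2.25. Eef1b2, the exchange factor of eEF1A, had 8891, 9250 and 9392 counts in CTL, 9749, 10208 and 10265 in Cu-Cys and 21020, 26396 and 19074 in Cadict libraries, without overlap, at 2.25 (SE 0.10, edgeR adjusted p = 4.2e-12). Eef1d, another exchange subunit, had 5363, 5359 and 5244 counts in CTL, 6222, 5785 and 6134 in Cu-Cys and 6212, 7702 and 6199 in Cadict libraries, at 1.31 (SE 0.08, edgeR adjusted p = 2.3e-10). Its Cu-Cys and Cadict counts overlapped, and both groups lay above CTL. Eef1a1 had 188254, 189453 and 200855 counts in CTL, 199158, 199328 and 197230 in Cu-Cys and 259095, 270636 and 241869 in Cadict libraries, at 1.39 (SE 0.06, edgeR adjusted p = 1.9e-12). Of its 50-base stretches, 39.44% also occur in other annotated genes, most of them pseudogenes. Eef2, the translocase, stood at 1.52 and Eef1g at 1.48, and 44.2% of the 50-base stretches of Eef1g also occur in pseudogenes. In Cu-Cys Eef1d passed (0.26, edgeR adjusted p = 0.0133). Eef1b2, Eef1g and Eef1a1 did not pass here but did with DESeq2's size factors (0.24, 0.19 and 0.15) and when only CTL and Cu-Cys libraries were fitted. Eef1a2, the copy known from muscle and neurons, had 0 to 4 counts a library and was not tested.

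Genes named after the elongation factors but encoding other proteins went mostly down. Eef1e1, a scaffold protein of the aminoacyl-tRNA synthetase complex, was the exception. It had 693, 739 and 718 counts in CTL, 990, 1287 and 1131 in Cu-Cys and 1276, 1348 and 1238 in Cadict libraries, at 1.82 in Cadict (SE 0.08, edgeR adjusted p = 6.3e-12) and 0.74 in Cu-Cys (SE 0.08, edgeR adjusted p = 6.1e-06), the highest change of any member in Cu-Cys. The others are methyltransferases that modify eEF1A or eEF2. Eef1aknmt had 662, 630 and 604 counts in CTL, 797, 738 and 803 in Cu-Cys and 57, 62 and 79 in Cadict libraries. It was higher than CTL in Cu-Cys (0.38, edgeR adjusted p = 0.00048) and far lower in Cadict (-2.28, SE 0.10, edgeR adjusted p = 5.9e-12). Eef2kmt stood at -1.44, Eef1akmt4 at -0.74 and Eef1akmt1 at -0.30, while Eef1akmt2 at 0.16 (edgeR adjusted p = 0.212) did not pass. Eef1akmt1 (edgeR adjusted p = 0.017) did not pass without CTL replicate 1 (-0.27) or without Cadict replicate 3 (-0.17). Eef1akmt2 did pass as higher without Cadict replicate 3 (0.30) and with DESeq2's size factors (0.28), and as lower with library totals (-0.79), with 235, 220 and 266 counts in CTL and 150, 148 and 112 in Cadict libraries. Eef1akmt3 (0 to 5 counts) and the readthrough gene Eef1akmt4-ece2 (0 to 9 counts) were not tested.

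The release factors held both one of the highest and the lowest log2 fold change of all members. Etf1, which reads all stop codons, had 6736, 6891 and 7022 counts in CTL, 7974, 8250 and 8032 in Cu-Cys and 19307, 18194 and 19208 in Cadict libraries. The groups did not overlap, and its log2 fold change was 2.43 (SE 0.05, edgeR adjusted p = 6.2e-16), a 5.4-fold rise. Gspt1, the main eRF3, had 7648, 7521 and 7463 counts in CTL, 8964, 8911 and 8702 in Cu-Cys and 7359, 7127 and 7642 in Cadict libraries, at 0.94 with TMM and -0.01 with library totals. Gspt2, an intronless copy of eRF3, had 295, 291 and 286 counts in CTL, 294, 283 and 273 in Cu-Cys and only 5, 8 and 12 in Cadict libraries. It fell to 0.0569 times the CTL level in Cadict (log2 fold change -4.14, SE 0.17, edgeR adjusted p = 3.1e-12) and did not pass in Cu-Cys (0.04, edgeR adjusted p = 0.713). None of its 50-base stretches occurs in another annotated gene. Its counts in Cadict were small, so the size of the fall carries more counting error than that of the other members.

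Both poly(A)-binding genes passed upward with TMM at nearly the same value, where 40.6% of all tested genes were called higher. Pabpc1 had 40937, 40255 and 41241 counts in CTL, 43780, 44049 and 44862 in Cu-Cys and 36032, 34353 and 39203 in Cadict libraries, at 0.82 with TMM and -0.14 with library totals. Pabpc4 had 9625, 9786 and 9636 counts in CTL, 11702, 11172 and 11269 in Cu-Cys and 9535, 9296 and 9763 in Cadict libraries, at 0.95. The summed share of counts of Pabpc1 and Pabpc4 was below that of CTL in every Cadict library, but only just. The highest Cadict library had 0.2735% and the lowest CTL library 0.2736%. With library totals Pabpc4 itself stood at 4e-05 (edgeR adjusted p = 0.999).

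Pairs of related genes were set against each other within each library, where scaling cancels. In 7 of the 9 pairs of paralogs the ratio was higher in every Cadict library than in any CTL library, and in 2 it was lower. The direction depends on which gene was set first. How many other pairs of genes show no overlap was not computed, and of all tested genes 40.6% were called higher and 47.1% lower in Cadict. The ratio of Eif1 to Eif1b was 40.52, 44.05 and 42.53 in CTL and 267.2, 245.3 and 249.8 in Cadict libraries, 5.997 times higher on the geometric mean. That of Eif5a to Eif5a2 rose 5.328 times and that of Eif4a1 to Eif4a2 rose 4.152 times, from 3.4, 3.446 and 3.623 to 14.42, 15.39 and 13.7. That of Gspt1 to Gspt2 rose 36.28 times, from 25.93, 25.85 and 26.09 to 1472, 890.9 and 636.8, on few Gspt2 counts. The ratio of Eif4e to Eif4e2 rose 1.92 times and that of Eif4g1 to Eif4g3 rose 1.549 times. The Eif4g1 to Eif4g2 ratio went to 0.7334 times and the Pabpc1 to Pabpc4 ratio to 0.9081 times the CTL value, both without overlap. Eif3j1 to Eif3j2 rose 1.418 times, on shared sequence. Eif5 to Eif5b, which are not paralogs but act at neighbouring steps, rose 3.457 times in Cadict and 1.49 times in Cu-Cys. In Cu-Cys the paralog ratios moved less. That of Eif1 to Eif1b was 1.17 times, Eif5a to Eif5a2 1.281 times and Gspt1 to Gspt2 1.205 times the CTL value, each without overlap.

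**Figure D4:**
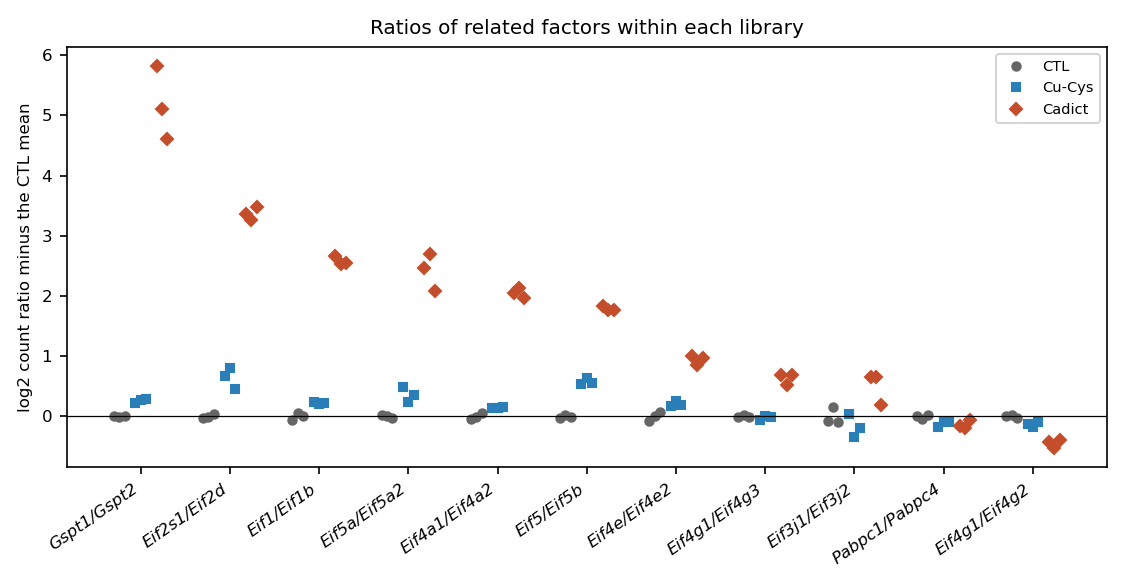
Log2 count ratio of related factors within each library, minus the mean of the CTL libraries (1 point per library, ordered by the Cadict value). Gspt1/Gspt2 spreads widely over the Cadict libraries where Gspt2 has 5, 8 and 12 counts, and of the pairs plotted only Pabpc1/Pabpc4 and Eif4g1/Eif4g2 go down in Cadict.

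Cu-Cys alone moved the same set less. With edgeR's quasi-likelihood test, 42 of 63 factor genes were higher than in CTL beside 22.6% of all tested genes, and 2 were lower, Eif2d and Eif4e3, beside 22.4%. None passed the study's threshold in either direction, beside 0.167% of all genes called higher and 1.47% called lower. At an unadjusted p under 0.05, 46 were higher and 2 lower. DESeq2's Wald test called 45 higher and 2 lower with an adjusted p no greater than 0.05, and 0 at the study's threshold. The shares of all genes at the unadjusted p and with the Wald test are not given here, and 22.6% and 22.4% do not apply to them. The median log2 fold change was 0.21, beside 0.01 for all genes. After Eef1e1, the highest were Eif3j2 at 0.62, Eif5 at 0.57, Eif5a at 0.50 and Eif4a1 at 0.49. Eef2 at -0.02 and Eif5b at -0.01 did not pass, nor did Eif4b at 0.998 times the CTL level.

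Cadict was also set against Cu-Cys, using the same Cadict libraries. With edgeR 47 genes were higher beside 40.3% of all genes, and 12 were lower beside 45.6%. At the study's threshold 30 were higher beside 18.6%, and 6 were lower beside 23.6%. Eif1 stood at 2.67, Etf1 at 2.12 and Eif2s2 at 2.02, and at the other end Gspt2 at -4.18, Eef1aknmt at -2.66 and Eif2b5 at -2.32. Eif4a2, which did not pass against CTL, was lower here (-0.43, edgeR adjusted p = 2.3e-07), and Eif2b4 did not pass (0.03, edgeR adjusted p = 0.765).

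Genes with short transcripts were higher in Cadict throughout the table, and the factor genes are shorter than most. The median effective length was 1807 bases for 61 members and 2572 bases for 10645 tested genes. Under 1000 bases the median log2 fold change was 0.70 over all 1353 genes and 1.70 over 12 members. From 1000 to 2000 bases it was 0.05 over all genes and 1.33 over 20 members, from 2000 to 4000 bases -0.32 and 1.04 over 21 members, and above 4000 bases -0.42 and 0.66 over 8 members. Members lay above all genes in each class, and both medians went down with length. The part of length in the changes of single members was not tested. The effective length itself, which follows the mix of transcripts of a gene, changed in none of 55 members that could be tested with limma, at a 1.2-fold difference with an adjusted p no greater than 0.05, beside 0.14% of all genes called longer and 0.927% called shorter. With no minimum fold it also changed in 0 members, and at an unadjusted p under 0.05 with no minimum fold 4 stood out, Eif1a, Eif4a2, Eif4h and Eif4enif1.

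The regulators that were kept out of the set moved in both directions. A list of 33 kinases, phosphatase subunits, binding proteins, recycling factors and modifying enzymes was fully tested. In Cadict 17 were higher and 12 lower, beside 40.6% and 47.1% of all tested genes, with a median log2 fold change of 0.35. In Cu-Cys 10 were higher and 5 lower, beside 22.6% and 22.4%, with a median of 0.12. Ppp1r15a (GADD34), the inducible subunit that removes phosphate from eIF2 alpha, had 579, 586 and 567 counts in CTL, 960, 834 and 866 in Cu-Cys and 16251, 15467 and 15409 in Cadict libraries. Every Cadict library lay far above the rest, at 5.74 (SE 0.07, edgeR adjusted p = 9.4e-18). The kinases of eIF2 alpha went the other way, and are named here after their values were seen. Eif2ak3 (PERK) had 657, 685 and 687 counts in CTL and 105, 105 and 119 in Cadict libraries, at -1.65. Eif2ak4 (GCN2) stood at -1.50, Eif2ak2 (PKR) at -1.14 and Eif2ak1 (HRI) at -0.76, and all 4 passed. Impact, which holds GCN2 back, had 1013, 1049 and 974 counts in CTL, 1426, 1514 and 1487 in Cu-Cys and 2191, 2029 and 2129 in Cadict libraries, at 2.04 (SE 0.05, edgeR adjusted p = 8.5e-15).

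Dhps, the first enzyme of the hypusine step on eIF5A, had 444, 476 and 491 counts in CTL, 659, 601 and 622 in Cu-Cys and 1146, 1273 and 1076 in Cadict libraries, at 2.29 (SE 0.08, edgeR adjusted p = 2.9e-13). Dhps lay without overlap in the same order as Eif5a, and how many of all genes share this order was not computed. Dohh, the other hypusine enzyme, did not share it. Its counts were 480, 473 and 416 in CTL, 604, 613 and 616 in Cu-Cys and 439, 515 and 446 in Cadict libraries, at 1.01 with TMM. The Cadict counts of Dohh overlapped those of CTL. Eef2k, the kinase that halts eEF2, had 1084, 1117 and 1131 counts in CTL, 973, 937 and 1051 in Cu-Cys and 88, 80 and 89 in Cadict libraries, at -2.72 (SE 0.08, edgeR adjusted p = 4.8e-14). Pelo, which rescues stalled ribosomes, had 265, 249 and 244 counts in CTL and 42, 39 and 36 in Cadict libraries, at -1.72. The other recycling and rescue genes on the list passed upward with TMM. They were Denr at 1.69, Abce1 at 1.16, Mcts1 at 0.58 and Hbs1l at 0.35. The Cadict counts of Mcts1 and Hbs1l lay below those of CTL. Dph7, of the diphthamide pathway that modifies eEF2, had 217, 214 and 210 counts in CTL, 143, 150 and 166 in Cu-Cys and 28, 46 and 28 in Cadict libraries, at -1.67 (SE 0.16, edgeR adjusted p = 5.4e-08). The other diphthamide genes on the list did not fall with TMM. Dph3 at 1.75, Dph2 at 1.32 and Dph6 at 1.24 passed upward, while Dph5 at 0.16 and Dph1 at 0.09 did not pass. The counts of Ppp1r15a, Dhps and Impact were thus highest, and those of Eef2k, Pelo and Dph7 lowest, in Cadict-treated cells.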

How the data were processed

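Total RNA of MC38 cells was enriched for mRNA. The study names TRIzol and an Illumina instrument, whereas the labels name a column kit and DNA nanoballs. The submitters' processing notes list HISAT2 2.1.0, Bowtie2 2.3.4.3 and RSEM 1.3.1 with the builds GRCm39 and GRCh38.p13, without their roles. The authors deposited, per gene and library, an expected count, an FPKM and a TPM. Another 9 columns of counts they normalized and 12 of averages were not used. Expected counts were rounded and tested in R 4.3.3 with edgeR 4.0.16 (filterByExpr, TMM, quasi-likelihood, Benjamini-Hochberg adjustment over all tested genes, 3 groups in one fit). Effective lengths (count over FPKM, at least 5 FPKM in every library) were tested with limma 3.58.1. Procedures were tested on simulated data. Those for edgeR had few changed genes, as many up as down, so they could not test the scaling of the Cadict libraries. DESeq2 1.42.0, library totals, filters and each library left out served as alternatives.

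Every tested member is named. Per-library counts are given for the highest and lowest change and the most abundant gene by TPM of each complex, for Eif2a, Eif2b1, Eif5a, Eif5b and paralog pairs, and for the 3 highest and 3 lowest regulators. Members and lists were chosen with earlier results of these data known. Of the members, 66 were matched by symbol to GENCODE M21 transcripts for stretches of 50 bases shared with other genes. The shared part was also 36.92% for Eif3j1, 34.59% for Eif2s3x, 28.41% for Eif4a1, 27.89% for Eef1akmt4, 20.31% for Eif3h and 19.23% for Eif1. Whether counting used strand is not given in the sources used here. Promoters are from RefSeq. Protein sequences were not used here.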

Additional observations from a re-analysis of the deposited data

How the results depend on the processing

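Of the processing choices, the scaling of Cadict libraries mattered most. With library totals in place of TMM, the factor genes lower than CTL rose to 22, beside 73.1% of all genes, and at the study's threshold 9 were higher and 13 lower, beside 6.93% and 51.5%. Against Cu-Cys, 29 were then higher and 27 lower, beside 17.3% and 72% of all genes, and at the study's threshold 4 and 12, beside 5.76% and 47.7%. In Cu-Cys against CTL the higher genes went from 42 to 33, beside 15.4%, with Eif1ax, Eif2a, Eif2s3x, Eif3a, Eif4e2, Eif4g1, Eif4g3, Eif4h and Pabpc1 losing their call. The sign turned for 14 genes in Cadict against CTL, to -0.18 for Eif3l, -0.58 for Eif2b4, -0.87 for Eif2s3y, -0.79 for Eef1akmt2, -0.02 for Eif1a, -0.11 for Eif2s3x, -0.49 for Eif1b, -0.14 for Pabpc1, -0.51 for Eif4g1, -0.07 for Eif4g2, -0.12 for Eif2a, -0.45 for Eif4b, -0.01 for Gspt1 and -0.34 for Eif2b1, as the shift of all genes by construction brings, and for Gspt2 in Cu-Cys against CTL to -0.03. With DESeq2's size factors and with DESeq2's Wald test, Eif4a2 stood at 0.03 in Cadict (it passed as lower at -0.17 without a filter and at -0.15 with at least 10 counts in every library), and in Cu-Cys Eif5b at 0.02, Eif4b at 0.02 and Eef2 at 0.01. Without a filter, Eif2s3y stood at -0.01 in Cadict, and Eif5b at 0.0005 and Eif4b at 0.01 in Cu-Cys. None of the genes in these last 2 sentences passed in the main comparison they are given for.

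The replicate block gave 48 higher and 11 lower genes in Cadict against CTL and 43 and 2 in Cu-Cys against CTL, the added call being Eef1b2. The share of all genes called is not given here for the block or for libraries left out. Same-numbered libraries did not deviate together (correlations of -0.209 to 0.16 over 8309 genes), so the numbers were not read as pairs. Leaving out 1 library at a time gave 48 to 49 higher and 10 to 12 lower genes in Cadict and 35 to 48 higher in Cu-Cys. It moved Eif2s3y between -0.57 and 0.53 in Cadict. In Cu-Cys it moved Eif2s3y between -0.11 and 0.30, Eef1akmt2 between -0.14 and 0.002, Eef2kmt between -0.11 and 0.01, Eif5b between -0.02 and 0.003, Eif4b between -0.02 and 0.02 and Eef2 between -0.06 and 0.03, none of which passed with all libraries. In Cu-Cys, 31 of 567 such values lost their call, in Eef1d, Eif1ax, Eif2a, Eif3a, Eif3i, Eif4e2, Eif4g1, Eif4h and Eif6.

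Without Eef1a1 the factor genes took 2.285%, 2.541% and 3.31% of counts in CTL, Cu-Cys and Cadict libraries. The log2 ratio of Eif2s1 to Eif2d, 3.37 higher in Cadict than in CTL by counts, was 3.60 higher by FPKM. DESeq2's size factors and Wald test each lost the calls of Eef1akmt1 and Eif4g3 in Cadict and gained Eef1akmt2 (0.28). Effective lengths gave 0 changed members under every alternative tried. Totals of 17905771 to 18293056 counts leave Gspt2, Eif2s3y and Eif4e3, with 4 to 36 counts in some libraries, as the least precise members. Regulators were run under the same alternatives, a choice made after the data were seen, and none of the 6 highest and lowest turned in sign.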
